A study of Gossypium hirsutum with 24 samples.

Results

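The 2 genes for WRKY transcription factors described here are those with such a name that the probe annotation of the cotton array gives as the only gene of a probe set, out of 520 genes so annotated. LOC107906829, with the synonyms WRKY24 and WRKY71, was read by 1 probe set, and LOC107931629 (WRKY15) by 2. RefSeq, on its assembly Gossypium_hirsutum_v2.1, gives 85 genes a WRKY name, so most of the family was not analysed here. The name WRKY24 belongs to 3 of these genes and is kept beside WRKY71, which belongs to 1. In Arabidopsis, WRKY71 is known for promoting shoot branching and flowering. Cotton WRKY15 is known from work in tobacco, where its expression was tied to disease resistance.

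WRKY proteins are plant transcription factors named for a conserved peptide in their DNA-binding domain, which also holds a zinc finger. They bind W-boxes, short DNA elements found in the promoters of many defence and stress genes, WRKY genes among them. In Arabidopsis, MAP kinases phosphorylate several WRKY proteins, and WRKY proteins act in pathogen defence, senescence and the responses to drought and salt. In cotton, a WRKY factor is known to activate a gene for cadinene synthase, which starts the path to gossypol.

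RNA came from field-grown upland cotton, Gossypium hirsutum cv. Bikaneri Nerma, and was hybridised to the Affymetrix cotton GeneChip. The 8 groups of 3 biological replicates were drought-induced and control plants sampled 0, 5, 10 and 20 dpa (days post anthesis, counted from the opening of the flower). Drought plots got no irrigation from peak flowering on, were covered when it rained, and were sampled once their soil had clearly dried; all groups share the cultivar and the site, and the labels do not say how many plants an RNA came from. RNA was taken from bolls at 0 and 5 dpa, where a collection note for 0 dpa also names leaf, and from ovules with their fibre at 10 and 20 dpa.

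The values are log2 signals from which the median of the 6 arrays of a stage had been taken away, probe set by probe set. They keep how far drought stood from control at a stage, but no transcript level and no change between stages in control plants, so the tissue labels could not be checked against levels of marker genes. In such mixed tissue a change in the share of a cell type and a change in RNA per cell cannot be told apart. An array has no count depth, and the 3 arrays per group limit the precision. Replicate arrays differed by a standard deviation of 0.14 to 0.29 over all probe sets. The mean difference of the poly-A spikes, which are bacterial RNAs put in during labelling, was 0.22, −0.24, 1.26 and 1.10 at 0, 5, 10 and 20 dpa (log2, drought minus control). Scaling the arrays on these spikes shifts every difference of a stage by the opposite amount. The signal at the 5′ end minus that at the 3′ end of 12 cotton control probe sets, which falls in degraded RNA, had differences of 0.66, 0.30, 0.36 and 1.17 at these stages. Drought and control arrays did not overlap in it at any of these stages, so as a covariate it cannot be cleanly told apart from drought.

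WRKY24/WRKY71 was higher in drought at all 4 stages on the deposited scale, by 2.48-fold at 0 dpa, 4.39-fold at 5 dpa, 1.99-fold at 10 dpa and 16.2-fold at 20 dpa; at 10 dpa scaling on the poly-A spikes turned the difference to −0.27. WRKY15 alternated. It fell at 0 and 20 dpa and rose at 5 and 10 dpa, and both of its probe sets passed the test in the same direction at each stage. The call of the sense probe set at 0 dpa (adjusted p = 0.0493) lay at the threshold. It was lost when any of 19 of the 24 arrays was left out, mostly arrays of other stages, without which the value stayed at −0.36. The calls of this probe set at 0 and 20 dpa were lost with a covariate for RNA integrity, which set drought arrays apart from control arrays at both stages. The comparison of drought with control at each stage asks how the supply of water alters transcripts during boll and fibre growth.

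At 0 dpa WRKY24/WRKY71 stood at 0.61, 0.68 and 0.72 in the 3 drought arrays, against −0.62, −0.61 and −0.71 in the 3 control arrays (centred log2 signal). All drought arrays lay above all control arrays, and 56.6% of all probe sets had no overlap of the groups at 0 dpa, 67.3% at 5 dpa, 62.8% at 10 dpa and 62.7% at 20 dpa. The difference was 1.31 ± 0.08 (log2, drought minus control, SE of the limma fit, n = 3 per group, adjusted p = 8.99e-11). Over all 23973 probe sets, 21.4% were called higher at this stage, and WRKY24/WRKY71 had rank 301 from the top. Among the 246 genes with a name, each by 1 probe set, it was number 7.

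At 5 dpa it had 1.05, 1.01 and 1.06 in drought bolls, against −1.01, −1.19 and −1.07 in control bolls. The groups did not overlap, and they lay much farther apart than the replicates of either. The difference of 2.13 ± 0.08 (adjusted p = 5.52e-15) was the 537th from the top, where 24.8% of probe sets were called higher.

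At 10 dpa, in ovules with elongating fibre, the rise was the smallest of the 4. Drought ovules had 0.45, 0.39 and 0.40, against −0.39, −0.65 and −0.70 in control ovules. The control array of replicate 1 was the nearest to the drought arrays, and the groups still did not overlap. The difference was 0.99 ± 0.08 (adjusted p = 8.01e-10; 28.5% of probe sets were called higher). With scaling on poly-A and hybridization spikes together it was 0.11 ± 0.13 (adjusted p = 0.413), and with scaling on the poly-A spikes alone −0.27 ± 0.17 (adjusted p = 0.140), so the direction at 10 dpa depends on the scale. The scaling on poly-A spikes moved the median of all probe sets at 10 dpa to −1.28. It shifts all probe sets of a stage alike, so the place of WRKY24/WRKY71 above that median was fixed and does not bear on its direction.

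At 20 dpa, when fibre lays down secondary wall, the drought arrays had 1.94, 1.94 and 2.06, against −2.25, −1.94 and −1.94 in the control arrays. The 2 groups lay about 4 log2 units apart with a spread of at most 0.18 (SD) within a group. The difference of 4.02 ± 0.08 (adjusted p = 1.81e-19) was the 51st highest of all probe sets and the highest of the 246 named genes, at a stage where 26% of probe sets were called higher. It remained 2.92 ± 0.17 with scaling on the poly-A spikes and was 4.38 ± 0.22 with the 5′ minus 3′ signal added as a covariate. Higher calls at all 4 stages were found at 3.41% of probe sets, WRKY24/WRKY71 among them.

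**Figure D1:**
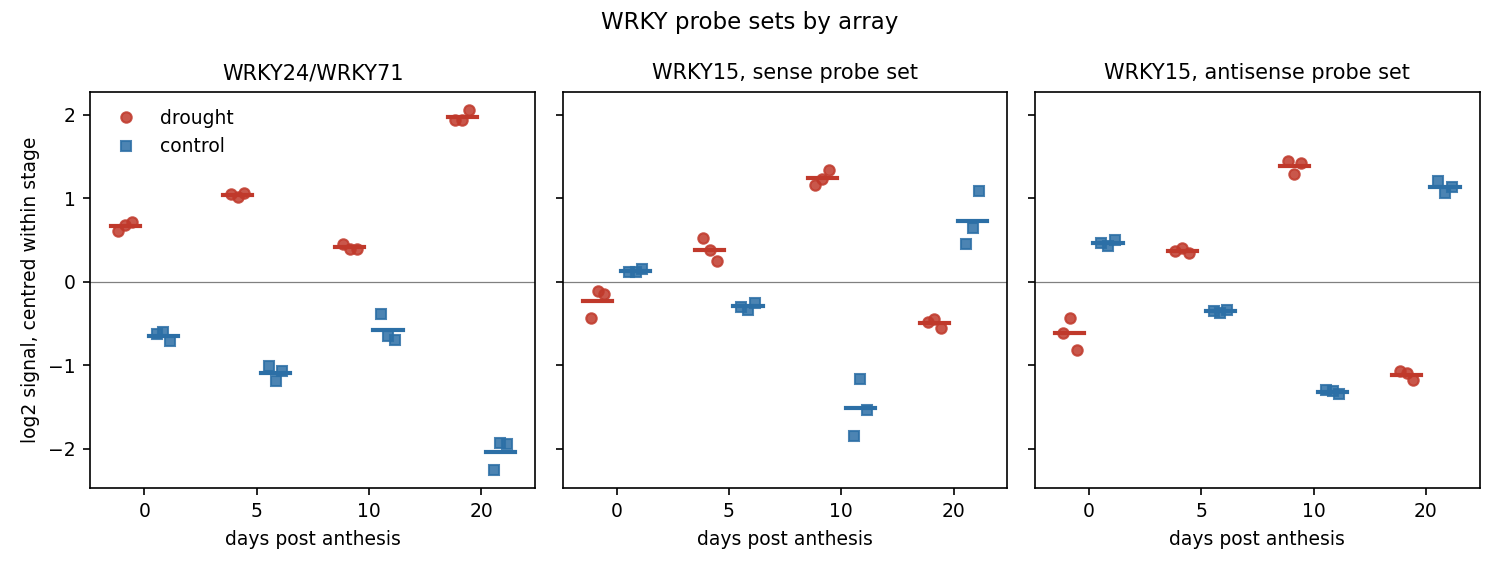
Centred log2 signal (vertical axis) of each array for the WRKY24/WRKY71 probe set and both WRKY15 probe sets at 0, 5, 10 and 20 dpa (horizontal axis), with drought arrays as red circles, control arrays as blue squares and the group mean as a line. Drought and control arrays do not overlap in any panel at any stage; for WRKY24/WRKY71 drought lies above control at all 4 stages, with 10 dpa turning to −0.27 on poly-A spike scaling, and for WRKY15 drought lies below control at 0 and 20 dpa.

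The effect of drought on WRKY24/WRKY71 differed between stages in the interaction tests of the same fit. In order, the effect was highest at 20 dpa, followed by 5, 0 and 10 dpa. The effect at 20 dpa exceeded that at 5 dpa by 1.89 ± 0.12 (adjusted p = 1.70e-11), and the effect at 5 dpa exceeded that at 0 dpa by 0.82 ± 0.12 (adjusted p = 4.38e-06). The step between 0 and 5 dpa turned to −0.35 under quantile normalization (adjusted p = 0.0755), which gives all arrays of all stages 1 distribution although the deposited arrays had a standard deviation of 0.25 to 0.28 at 0 dpa and of 0.39 to 0.41 at 5 dpa. The lowest neighbours in that order, 10 and 0 dpa, differed by −0.32 ± 0.12 (10 minus 0 dpa, adjusted p = 0.0237). This call was lost without control replicate 1 of 10 dpa (−0.22, adjusted p = 0.0855), without control replicate 3 of 0 dpa (−0.29, adjusted p = 0.0572) and without drought replicate 3 of 0 dpa (−0.29, adjusted p = 0.0533). On the poly-A spike scale the step from 5 to 20 dpa was 0.55 ± 0.25 (adjusted p = 0.0360) and that from 0 to 10 dpa −1.36 ± 0.25. The step from 10 to 20 dpa was the widest, at 3.03 ± 0.12 (adjusted p = 3.19e-15). Of all probe sets, 57.9% were called for 20 minus 5 dpa, 53.3% for 5 minus 0 dpa, 58.4% for 10 minus 0 dpa and 59.9% for 20 minus 10 dpa.

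For WRKY15 the array carries a probe set named as sense and another named as antisense, both designed on the same expressed sequence. Which of them reads the coding strand cannot be told from the files. In the assembly no gene overlaps WRKY15, and none of the 5 genes on either side of it or of WRKY24/WRKY71 is read by an annotated probe set. Of 23973 probe sets only 697 were annotated with 1 gene and 46 with several, so the lack says little about these neighbours. Upland cotton holds 2 related subgenomes, and signal from a copy on the other subgenome cannot be told apart; the suffix of the WRKY24/WRKY71 probe set marks it as able to bind related transcripts.

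At 0 dpa the sense probe set had −0.43, −0.12 and −0.15 in drought bolls, against 0.12, 0.12 and 0.15 in control bolls. The antisense probe set had −0.61, −0.43 and −0.81 in drought bolls, against 0.46, 0.43 and 0.50 in control bolls. With both probe sets the drought arrays lay below the control arrays, and the drought arrays scattered more than the control arrays. The difference was −0.36 ± 0.14 at the sense probe set (adjusted p = 0.0493) and −1.08 ± 0.07 at the antisense probe set (adjusted p = 1.82e-10), where 22.9% of probe sets were called lower.

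The call at the sense probe set lay at the threshold. Without single arrays the values ran from −0.42 to −0.26, and it stood at −0.26 without drought replicate 1 of 0 dpa (adjusted p = 0.203). It was lost with the 5′ minus 3′ signal added as a covariate (−0.21 ± 0.27, adjusted p = 0.678), while the antisense probe set stood at −1.02 ± 0.13 in that fit (adjusted p = 1.57e-05).

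At 5 dpa WRKY15 was higher in drought. The sense probe set had 0.53, 0.38 and 0.25 in drought bolls, against −0.30, −0.33 and −0.25 in control bolls. The antisense probe set had 0.37, 0.40 and 0.34 in drought bolls, against −0.35, −0.37 and −0.34 in control bolls. The groups did not overlap at either probe set, as at 67.3% of all probe sets at this stage. The differences were 0.68 ± 0.14 (sense, adjusted p = 0.000371) and 0.73 ± 0.07 (antisense, adjusted p = 1.48e-08), where 24.8% of probe sets were called higher.

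The rise was largest at 10 dpa. The sense probe set had 1.16, 1.23 and 1.34 in drought ovules, against −1.85, −1.16 and −1.54 in control ovules. The antisense probe set had 1.45, 1.29 and 1.42 in drought ovules, against −1.29, −1.31 and −1.35 in control ovules. The sense probe set scattered more in control ovules, with an SD of 0.35 where the antisense probe set had 0.03. WRKY15 was 6.76-fold higher by the sense probe set (2.76 ± 0.14, adjusted p = 4.58e-13) and 6.51-fold by the antisense probe set (2.70 ± 0.07, adjusted p = 3.41e-18). At this stage 28.5% of all probe sets were called higher. Scaling on the poly-A spikes left 1.50 ± 0.20 (sense) and 1.44 ± 0.16 (antisense). Without drought replicate 2 of 10 dpa, the array that differed most from its replicates, the values were 2.76 and 2.75 for WRKY15 and 1.00 for WRKY24/WRKY71.

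At 20 dpa WRKY15 was lower in drought. The sense probe set had −0.48, −0.45 and −0.55 in drought ovules, against 0.45, 0.64 and 1.08 in control ovules. The antisense probe set had −1.07, −1.09 and −1.18 in drought ovules, against 1.21, 1.07 and 1.13 in control ovules. The groups were apart at both, by a wider gap at the antisense probe set. The differences were −1.22 ± 0.14 (sense, adjusted p = 3.27e-07) and −2.25 ± 0.07 (antisense, adjusted p = 2.44e-16), at a stage where 34% of probe sets were called lower. With a covariate for the 5′ minus 3′ signal the sense probe set stood at −0.95 ± 0.42 and was no longer called (adjusted p = 0.141), and the antisense probe set at −2.15 ± 0.21 (adjusted p = 2.44e-07). With scaling on the poly-A spikes the values were −2.32 ± 0.20 and −3.34 ± 0.16. Lower, higher, higher and lower calls at the 4 stages in this order were found at 3.1% of all probe sets, both WRKY15 probe sets among them.

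The sense and antisense probe sets of WRKY15 had a Pearson r of 0.92 and a Spearman rho of 0.94 over the 24 arrays, which share their 8 groups and the centring within stages. Their drought effects differed by 0.05 at 5 dpa (antisense minus sense, p = 0.5) and by −0.05 at 10 dpa (p = 0.8, two-sided exact permutation tests over the 6 arrays of a stage). They differed by −0.72 at 0 dpa and by −1.03 at 20 dpa, both with an exact permutation p = 0.1, the smallest that 3 against 3 arrays allow. These are the stages with the widest gap in the 5′ minus 3′ signal, 0.66 and 1.17; its part in the difference between the probe sets was not tested.

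**Figure D2:**
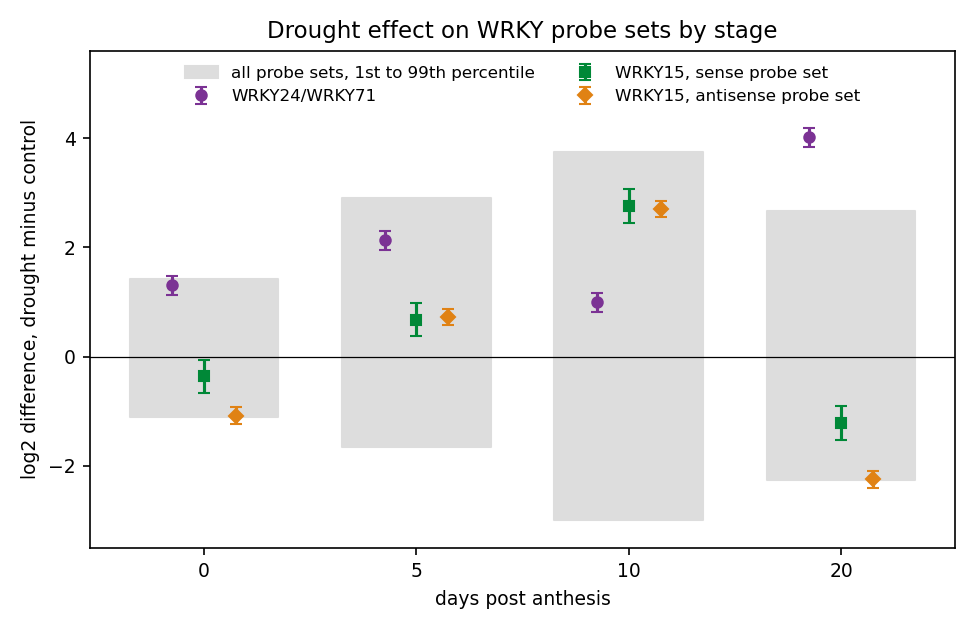
Log2 difference, drought minus control (vertical axis), at each stage (horizontal axis, dpa) with 95% confidence intervals from the limma fit, for the WRKY24/WRKY71 probe set and both WRKY15 probe sets; grey boxes span the 1st to the 99th percentile of all probe sets. WRKY24/WRKY71 lies above the box at 20 dpa, and its 10 dpa value of 0.99 turns to −0.27 on poly-A spike scaling; the WRKY15 values change sign between 0 and 5 dpa and between 10 and 20 dpa.

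The order of the drought effect on WRKY15 over stages was 10, 5, 0 and 20 dpa, from the highest to the lowest. At the sense probe set the effect at 10 dpa exceeded that at 5 dpa by 2.08 ± 0.20 (adjusted p = 3.36e-08; 46.6% of probe sets were called in this contrast), and the effect at 5 dpa exceeded that at 0 dpa by 1.04 ± 0.20 (adjusted p = 0.000214). The effect at 20 dpa lay below that at 0 dpa by −0.86 ± 0.20 (adjusted p = 0.00172, where 44.8% of probe sets were called). The antisense probe set gave 1.98 ± 0.10, 1.81 ± 0.10 and −1.17 ± 0.10 for the same steps. On the poly-A spike scale the step from 5 to 10 dpa was 0.58 ± 0.28 (sense, adjusted p = 0.0465) and 0.47 ± 0.23 (antisense, adjusted p = 0.0487). The antisense step between 0 and 20 dpa shrank to −0.22 under quantile normalization (adjusted p = 0.197). From 10 to 20 dpa the effect moved by −3.98 ± 0.20 at the sense and −4.95 ± 0.10 at the antisense probe set (adjusted p = 4.63e-13 and 9.12e-20).

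Averaged over the 4 stages, the effect was 2.11 ± 0.04 for WRKY24/WRKY71 (adjusted p = 4.34e-20) and 0.46 ± 0.07 at the sense probe set of WRKY15 (adjusted p = 7.94e-06). At the antisense probe set the mean was 0.03, with a 95% confidence interval of −0.05 to 0.10 (adjusted p = 0.528), with positive effects at 5 and 10 dpa and negative ones at 0 and 20 dpa. In this contrast 68.5% of probe sets were called, and the WRKY15 means turned to −0.12 and −0.56 with scaling on the poly-A spikes.

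The drought effects on the 2 genes were compared within each array, which removes a shift common to all log2 values of the array, as in the spike scalings. It does not remove a change such as quantile normalization. With the WRKY15 probe sets averaged, the effect on WRKY24/WRKY71 exceeded that on WRKY15 by 2.03 at 0 dpa, 1.43 at 5 dpa and 5.75 at 20 dpa. That average holds a probe set that may not read the coding strand. The antisense effect differed from the sense effect by −0.72 at 0 dpa and −1.03 at 20 dpa. At 10 dpa the order was the reverse, and the effect on WRKY24/WRKY71 was lower by −1.74. The two-sided exact permutation p for this measure was 0.1 at each of the 4 stages, the smallest possible. At 0 and 20 dpa it was fixed in advance and adds nothing. There the drought arrays lay above all control arrays for WRKY24/WRKY71 and below them for WRKY15. How often other pairs of genes reach this p was not counted. Over the 24 arrays the 2 genes had an r of −0.07 (sense probe set) and −0.34 (antisense probe set).

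**Figure D3:**
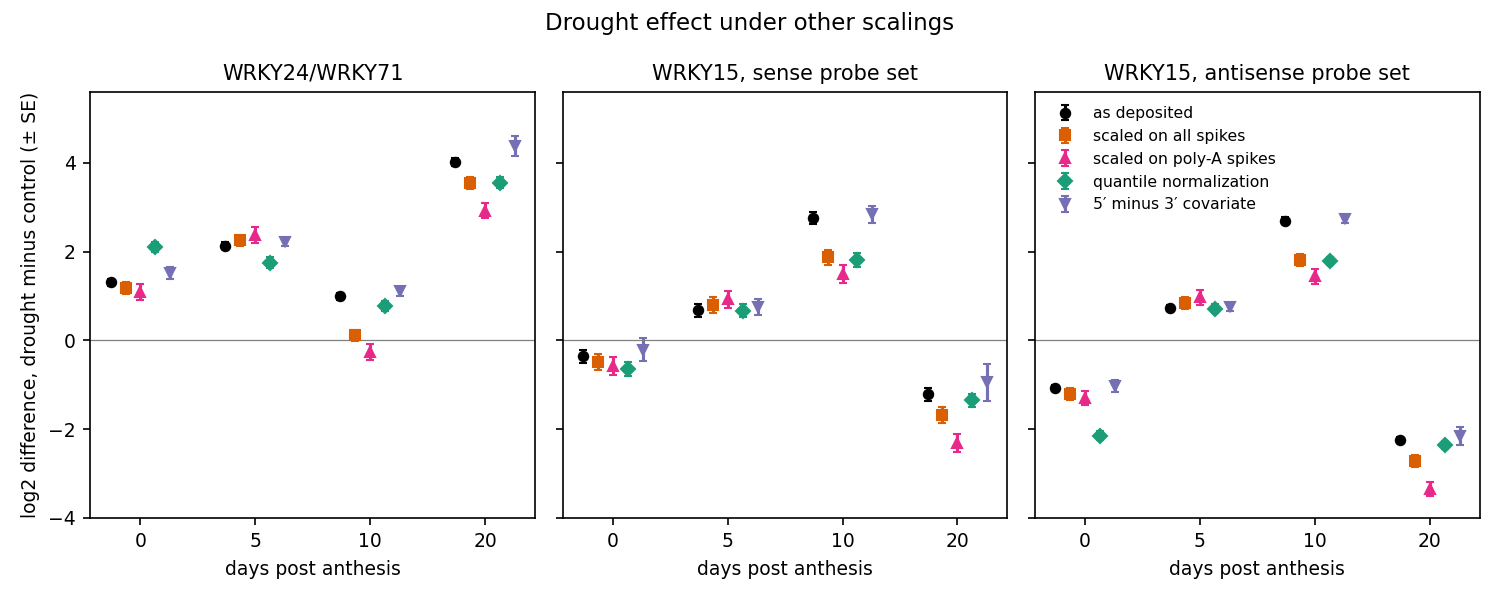
Log2 difference, drought minus control, with its SE (vertical axis) at each stage (horizontal axis, dpa) as deposited, after scaling on all spike controls or on poly-A spikes alone, after quantile normalization, and with the 5′ minus 3′ signal added as a covariate. Among the stage effects drawn, only that of WRKY24/WRKY71 at 10 dpa changes its sign, with scaling on the poly-A spikes.

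Among 244 other named genes, DBP3b (LOC107890730), a gene for a factor of the AP2 type, had the pattern most like that of WRKY24/WRKY71, with a Pearson r of 0.98 over the 24 arrays. Its drought effects were 1.68, 2.32, 0.47 and 3.65 at 0, 5, 10 and 20 dpa. The next was ACS3/ACS6 (LOC107947061), which codes for ACC synthase, the enzyme that makes the precursor of ethylene (r = 0.98), with 1.23, 3.01, 0.61 and 3.79. MFP (LOC107932835) followed with an r of 0.96, SusA1 (LOC107910106), a sucrose synthase gene, with 0.89, and ERF9 (LOC107932376), an ethylene response factor gene, with 0.88. Picked by their r over these same arrays, they have by choice a pattern like that of WRKY24/WRKY71, high at 5 and 20 dpa with a dip at 10 dpa. At 10 dpa MFP (0.34, adjusted p = 0.0960) and ERF9 (−0.19, adjusted p = 0.113) did not pass the test. On poly-A spike scaling the 10 dpa values were −0.79 for DBP3b, −0.65 for ACS3/ACS6, −0.92 for MFP, 0.09 for SusA1 and −1.45 for ERF9. Of all other probe sets, 93 (0.388%) had an r above 0.95 with WRKY24/WRKY71, the highest being 0.99.

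The genes most like WRKY15, by its sense probe set, were XTH3 (LOC107913353, r = 0.97), a xyloglucan endotransglucosylase/hydrolase gene of the cell wall, and the lipoxygenase gene Lox1 (LOC107919998, r = 0.96). ERF8 (LOC107922990) and ACO1 (LOC107905899), which codes for the ACC oxidase that releases ethylene, each had an r of 0.94, as did SOS2 (LOC107962610), a protein kinase gene whose Arabidopsis namesake acts in salt tolerance. All 5 were picked for a pattern like that of WRKY15 in these same arrays. They were called lower at 0 dpa, higher at 5 and 10 dpa and lower at 20 dpa, with XTH3 at −0.42, 1.48, 3.84 and −2.07. SOS2 moved least, from −0.28 to 0.74, and its 10 dpa value turned to −0.52 on poly-A spike scaling. Another gene named ACO1 (LOC107954048) did not share the rise at 5 and 10 dpa. It stood at −0.13 (adjusted p = 0.419), −1.26, −0.65 and −2.07 at 0, 5, 10 and 20 dpa. Above an r of 0.95 were 54 probe sets (0.225%).

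**Figure D4:**
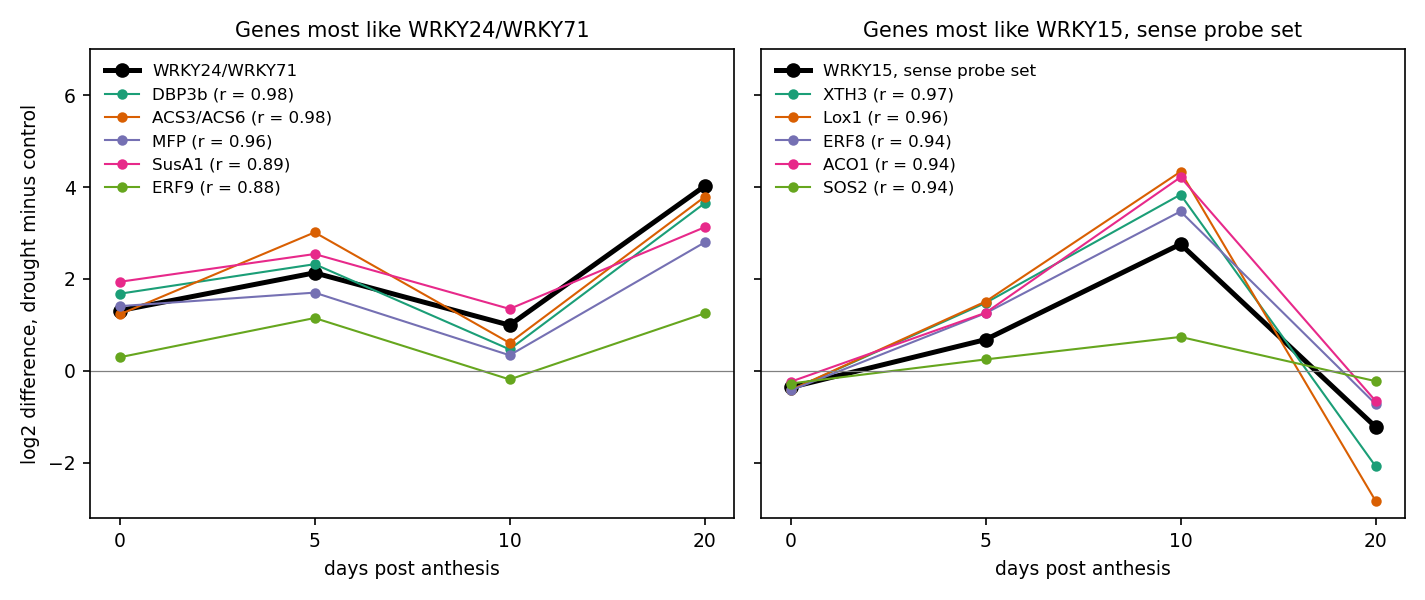
Drought effect (log2 difference, drought minus control, vertical axis) by stage (horizontal axis, dpa) of WRKY24/WRKY71 and the WRKY15 sense probe set (black) with the 5 named genes of highest Pearson r over the 24 arrays (coloured). The left set is high at 5 and 20 dpa and dips at 10 dpa, where WRKY24/WRKY71, DBP3b, ACS3/ACS6 and MFP turn negative on poly-A spike scaling and ERF9 is negative on both scales; the right set peaks at 10 dpa and is negative at 0 and 20 dpa, SOS2 at 10 dpa turning to −0.52 on that scaling.

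Of the MAP kinase cascade, which acts upstream of WRKY proteins in Arabidopsis, 5 genes were read, 4 for MAP kinases and 1 (MAPKKK) for a kinase at the top of the cascade. At 0 dpa 1 rose and 2 fell, at 5 and 10 dpa all 5 rose, and at 20 dpa 2 rose, with list medians of 0.06, 0.48, 0.88 and 0.08 beside medians over all probe sets of 0.01, −0.05, −0.02 and −0.07. Of all probe sets, 21.4, 24.8, 28.5 and 26% were called higher and 22.9, 33.4, 31.8 and 34% lower at 0, 5, 10 and 20 dpa. MPK3 (LOC107959059) moved most, at −0.55 ± 0.14, 2.07 ± 0.14, 2.73 ± 0.14 and 0.65 ± 0.14 at 0, 5, 10 and 20 dpa. MAPKKK (LOC107959605) stood at 0.95 ± 0.08 at 5 dpa and 1.78 ± 0.08 at 10 dpa. With scaling on the poly-A spikes the other 3 turned negative at 10 dpa, MPK23 (LOC107912015) at −0.38, MAPK/MPK14 (LOC107905456) at −0.61 and MPK3/MPK6 (LOC107903096) at −0.93, and both genes called at 20 dpa turned negative, MPK3 to −0.44 and MPK23 to −0.85.

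Of 6 ethylene synthesis genes 1, 4, 4 and 1 rose and 3, 1, 2 and 4 fell at 0, 5, 10 and 20 dpa, ACS3/ACS6 at 10 dpa turning to −0.65 on poly-A spike scaling. The shares of all probe sets called are those given for the MAP kinase cascade, and the list medians were −0.22, 1.06, 1.04 and −0.64, beside 0.01, −0.05, −0.02 and −0.07 over all probe sets. ACS3/ACS6 was the member that rose at 0 and at 20 dpa, as WRKY24/WRKY71 did, while ACO3 (LOC107915412) stood at −0.61 ± 0.05 and −3.45 ± 0.05 at those stages. At 10 dpa ACO3 was called higher at 1.48, and on poly-A spike scaling it stood at 0.22 and lost its call (adjusted p = 0.194). The cadinene synthase gene cdn1 (LOC107903500), the only terpenoid gene matched, was lower at 0 dpa (−1.01 ± 0.15), 10 dpa (−1.67 ± 0.15) and 20 dpa (−0.64 ± 0.15), and stood at −0.29 ± 0.15 at 5 dpa (adjusted p = 0.114). Its probe set can bind transcripts of related cadinene synthase genes, whose signals cannot be told apart.

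**Figure D5:**
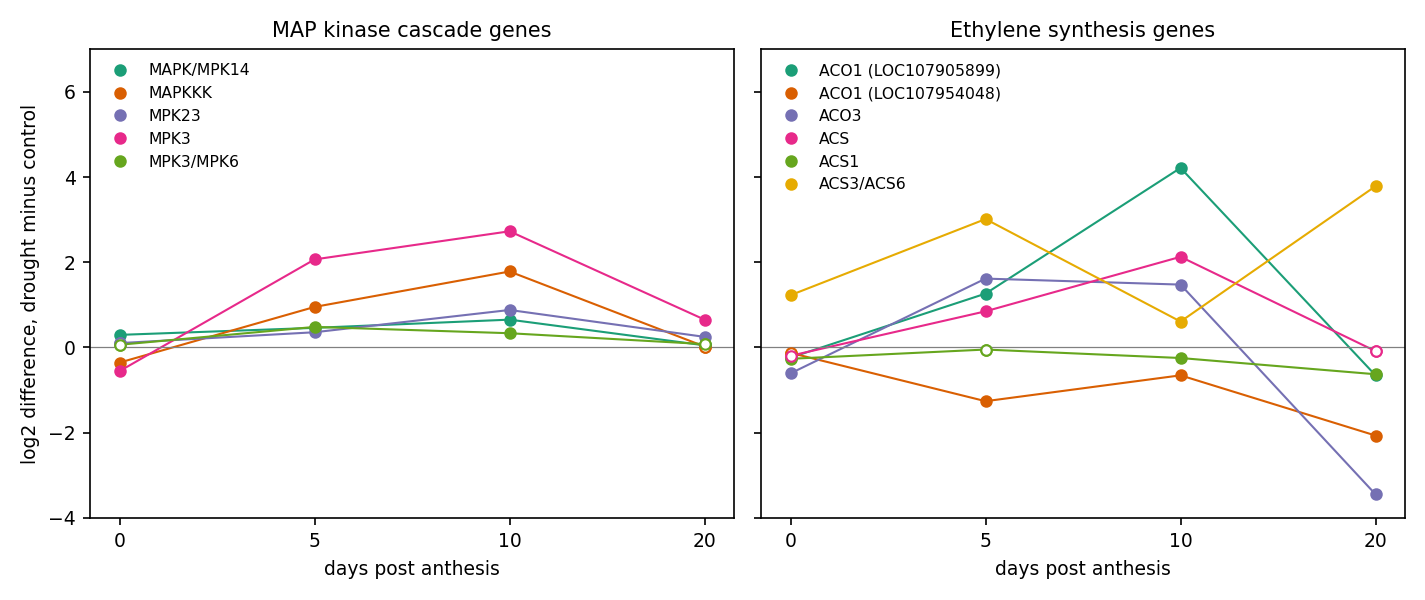
Drought effect (log2 difference, drought minus control, vertical axis) by stage (horizontal axis, dpa) of the MAP kinase cascade genes and the ethylene synthesis genes read by the array; open circles mark values that did not pass the test. All 5 MAP kinase cascade genes are positive at 5 and 10 dpa, 3 of them turning negative at 10 dpa on poly-A spike scaling, and ACS3/ACS6 is the only ethylene synthesis gene that is positive at 20 dpa.

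Other lists were counted by 1 probe set per gene, beside the same shares of all probe sets. The 9 ERF and AP2 genes rose at 3, 9, 6 and 4 and fell at 4, 0, 0 and 3 of their members at 0, 5, 10 and 20 dpa, the 6 NAC genes rose at 0, 4, 4 and 3 and fell at 1, 0, 0 and 2, and the 8 MYB genes rose at 2, 4, 5 and 0 and fell at 2, 4, 3 and 5. Of 3 zinc finger genes 1, 3, 3 and 2 rose and 1, 0, 0 and 0 fell, and of 2 homeobox genes 0, 1, 1 and 0 rose and 0, 1, 1 and 2 fell. Of 4 redox genes 0, 0, 2 and 0 rose and 1, 3, 2 and 3 fell, and the defence list held GLU (LOC107932771) alone, at −0.64, −1.25, −1.86 and 0.80. GLU and the NAC genes NAC6 and NAC10 were read by probe sets named as antisense, which may not read the coding strand. With scaling on the poly-A spikes, members called higher that turned negative at 10 dpa were 2 ERF and AP2, 2 MYB, 2 zinc finger and 1 redox gene, and at 20 dpa 2 ERF and AP2, 2 zinc finger and 1 NAC gene and GLU.

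Marker lists of tissues moved in the same arrays. Of 7 fibre markers 0, 1, 0 and 0 rose and 2, 5, 5 and 6 fell at 0, 5, 10 and 20 dpa, with medians of −0.14, −1.17, −0.63 and −0.85. Among them Rac13 was read by a probe set named as antisense, which may not read the coding strand. At 0 dpa, where WRKY24/WRKY71 rose and WRKY15 fell, the pollen marker G9 (LOC107942091), the only gene of its list, stood at 7.95, and the leaf marker RCA1 (LOC107942112) at 0.37. RCA1 stood at −3.46, −0.30 (adjusted p = 0.0583) and −0.85 at 5, 10 and 20 dpa. The list taken for seed held Lea5-D (LOC107916177) and Lea14-A (LOC107922715), late embryogenesis abundant genes. Lea5-D stood at 0.37, 2.57, 4.64 and 0.13 (adjusted p = 0.0559) at 0, 5, 10 and 20 dpa. Lea14-A stood at 0.89, 1.90, 3.29 and 1.17, all called higher. Whether these genes followed seed tissue or drought itself was not tested. The xylem list had 0 members, and the part of these tissues in the WRKY values was not tested.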

How the data were processed

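The authors deposited 1 table of 24132 probe sets by 24 arrays, made by RMA per the submitters' processing notes; RMA gives log2 values, and the deposited log2 values were taken as such. Each probe set had a median of 0 over the 6 arrays of its stage, to within 5e-07, so the authors centred it there, a step that the sources used here do not give. Without levels, no filter on dim probe sets could be applied.

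The 159 control probe sets were left out, and limma 3.58.1 in R 4.3.3 (lmFit, eBayes) fitted 8 group means to the 24 arrays, with 16 residual degrees of freedom. P-values are two-sided, adjusted by Benjamini-Hochberg over 23973 probe sets, and called under 0.05. The fit was tested on simulated data. Contrasts were drought minus control per stage, their mean, and differences between stages (6 pairs). Differences between the genes used exact permutation tests.

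Genes were named by a rule: every probe set of the members, the 5 named genes of highest Pearson r with each, and genes that lists of names held, by the sense probe set first. Members and lists were chosen with earlier results of these data known. P-values rest on arrays called biological replicates in the labels. Same-numbered drought and control arrays had correlations of their deviations from −0.10 to 0.11 over 12 pairs, so numbers were not taken to pair arrays. Alternatives were 2 spike scalings (that on poly-A spikes chosen after seeing the data), quantile normalization, the 5′ minus 3′ covariate, a replicate block, robust moderation, array weights, stage-only fits, control probe sets kept in and leaving out each array. No sequence of the members was printed, since none was in the sources used here.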

Additional observations from a re-analysis of the deposited data

Results flagged for a closer look

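The effect of drought on each WRKY probe set differed between stages by interaction tests (limma, Benjamini-Hochberg adjusted), and all 18 differences passed. For WRKY24/WRKY71 the effect changed by 0.82 (5 minus 0 dpa), −0.32 (10 minus 0 dpa), 2.71 (20 minus 0 dpa), −1.14 (10 minus 5 dpa), 1.89 (20 minus 5 dpa) and 3.03 (20 minus 10 dpa) on the log2 scale. For the WRKY15 sense probe set the same differences were 1.04, 3.12, −0.86, 2.08, −1.90 and −3.98. For its antisense probe set they were 1.81, 3.78, −1.17, 1.98, −2.97 and −4.95. For WRKY24/WRKY71 the −0.32 lost its call without any of 3 arrays (adjusted p up to 0.0855), and the 0.82 turned to −0.35 under quantile normalization. The −1.17 of the antisense probe set lost its call under that normalization, at −0.22. From 10 to 20 dpa the effects on the 2 genes thus moved in opposite directions. Between 44.8% and 59.9% of all probe sets passed in these contrasts, so that such a change is common on these arrays.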

How the results depend on the processing

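With 3 arrays per group the spread within a group rests on few values, and centred values give no measure of signal over background, so dim probe sets could not be told from bright ones. Of the WRKY results under the alternatives other than leaving out an array, 284 kept direction and call, 8 lost the call and 6 changed sign. The replicate block, robust moderation, stage-only fits and control probe sets kept in leave each difference as it was, so only the call could change there. Scaling on the poly-A and hybridization spikes took WRKY24/WRKY71 at 10 dpa to 0.11 and the mean over stages of WRKY15 to 0.13 (sense) and −0.31 (antisense). Scaling on the poly-A spikes alone took these to −0.27, −0.12 and −0.56, and quantile normalization took the means to 0.12 and −0.50. Quantile normalization also took WRKY24/WRKY71 for 5 minus 0 dpa to −0.35 and the WRKY15 antisense probe set for 20 minus 0 dpa to −0.22. The 5′ minus 3′ signal did not overlap between drought and control arrays, so it cannot be cleanly told apart from drought. As a covariate it took the WRKY15 sense probe set to −0.21 at 0 dpa and −0.95 at 20 dpa, and the cause was not tested. At 0 dpa that probe set stayed at −0.36 but lost its call with a replicate block (adjusted p = 0.0568) and with robust moderation (adjusted p = 0.0517). The replicate block changed no other call; 1 of 12 drought arrays correlated best with the control array of its own number. Leaving out an array gave −0.42 to −0.26 for the WRKY15 sense probe set at 0 dpa, its call lost in 19 of 24 fits (adjusted p up to 0.203), and −0.38 to −0.22 for WRKY24/WRKY71 at 10 minus 0 dpa, its call lost in 3. No other call changed, and no sign. Over all probe sets, 5123 of 10606, 5947 of 13963, 6831 of 14445 and 6231 of 14380 calls at 0, 5, 10 and 20 dpa were higher in drought as deposited. With both kinds of spikes these were 2371 of 7402, 6223 of 11109, 1811 of 22017 and 2430 of 19423, and with poly-A spikes alone 1454 of 6578, 6862 of 9941, 1184 of 22746 and 1018 of 22579. The covariate left 3686 calls at 0 dpa, 4359 at 20 dpa and 8249 of 16423 for the mean over stages. Between stages, the scaling on both kinds of spikes gave 21798 calls for 10 minus 5 dpa, against 11160 as deposited. That on poly-A spikes gave 23097 there, 20384 against 10742 for 20 minus 0 dpa and 21672 against 13881 for 20 minus 5 dpa.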

Other observations

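Likeness measured by the distance between the 4 drought effects in place of the correlation over arrays gave in part other genes. For WRKY24/WRKY71 the 5 nearest named genes were DBP3b, ACS3/ACS6, SusA1, MFP and BC1 (LOC107910621), with distances from 0.77 for DBP3b to 3.03 for BC1 on the log2 scale, so that 4 of the 5 genes named by correlation were kept. For the WRKY15 sense probe set they were ERF8 (1.04), HB4 (LOC107934293, 1.18), ACS (LOC107923295, 1.32), ERF7 (LOC107941184, 1.48) and XTH3 (1.59), of which 2 had been named by correlation. HB4, a homeobox gene by its name, rose by 1.42 and 1.95 at 5 and 10 dpa and stood at −1.02 at 20 dpa, and ERF7 stood at 1.80, 2.13 and −1.85 at these stages. Being nearest did not mean the same calls. BC1 was not called at 5 dpa (0.18, adjusted p = 0.412) and was lower at 10 dpa (−0.63, adjusted p = 0.00358). ACS was not called at 0 dpa (−0.20, adjusted p = 0.214) or 20 dpa (−0.09, adjusted p = 0.564), nor HB4 at 0 dpa (adjusted p = 0.929).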
